A study of Mus musculus with 6 samples.

Results

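The genes of the pore-forming subunits of voltage-gated calcium channels, Cacna1a to Cacna1i and Cacna1s, were followed in RNA from embryonic mouse dorsal root ganglia. All 10 genes were taken by name, through 77 annotated transcripts, out of 37086 genes in the data. The RNA came from wild-type C57BL/6J embryos at embryonic day 14.5, with the ganglia of 18 embryos pooled, so it holds sensory neurons together with glia, vessels and connective tissue. The high-volume group was 3 libraries made from 3, 10 and 30 ng of this RNA in a reaction with 9 µl of RNA. The low-volume group was 3 libraries made from the same amounts in 1 µl with another SMARTer kit, so the volume and the kit cannot be told apart. SMARTer kits prime the cDNA on the poly(A) tail and amplify it by PCR. With 1 RNA pool behind all 6 libraries, each SD, SE and p-value rests on differences between libraries and none measures the spread between animals. Each combination of volume and input was prepared once. An SD over libraries therefore includes differences of input, and over all 6 libraries also those of volume and kit.

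A pore subunit is the large protein that forms the calcium-selective pore and senses the membrane voltage. The L-type subunits (Cacna1c, Cacna1d, Cacna1f, Cacna1s) couple depolarisation to contraction, secretion and gene expression. The P/Q-, N- and R-type subunits (Cacna1a, Cacna1b, Cacna1e) admit the calcium that triggers transmitter release at nerve terminals, and the T-type subunits (Cacna1g, Cacna1h, Cacna1i) open at voltages near rest. Adult sensory neurons are known for N-type current at their central terminals, the target of the analgesic ziconotide, and for T-type current carried mainly by Cacna1h. Transcripts of Cacna1b are also known for alternative exons that change the channel's properties.

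Cacna1b carries a pair of neighbouring exons of 97 bases, known as e37a and e37b, of which each annotated transcript holds at most 1. They are shown because their equal length lets their tags be compared directly. In the rat, e37a is known to be enriched in nociceptors. Both lie on the minus strand of chromosome 2 of GRCm38, e37a at chr2:24626823-24626919 and e37b at chr2:24625238-24625334, in the part of the gene that codes for the C-terminal tail. The sequences are those of the GENCODE M21 transcripts, 5′ to 3′, and capitals mark the positions at which the exons differ when aligned base by base, which leaves 57 of 97 positions identical (58.8%).
e37a: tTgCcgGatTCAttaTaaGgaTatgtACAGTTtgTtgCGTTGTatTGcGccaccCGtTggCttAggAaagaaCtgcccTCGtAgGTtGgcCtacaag
e37b: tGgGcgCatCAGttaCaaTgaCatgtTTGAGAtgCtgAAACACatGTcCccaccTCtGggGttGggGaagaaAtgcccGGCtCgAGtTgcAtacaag

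Shorter alternative exons of Cacna1b are printed here because so few bases can catch a tag. The 6-base exon at chr2:24642853-24642858 codes for 2 residues of a loop in domain IV and is known in the rat to be more common in peripheral ganglia than in brain. The 12-base exon at chr2:24656711-24656722 codes for 4 residues of a loop in domain III. The 63-base exon at chr2:24682976-24683038 lies in the loop between domains II and III. For the first pair, capitals mark the exon and lower case the 15 bases of transcript on either side. The 63-base exon is given without flanks.
6-base exon: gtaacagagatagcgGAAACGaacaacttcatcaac
12-base exon: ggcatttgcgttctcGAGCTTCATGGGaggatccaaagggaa
63-base exon: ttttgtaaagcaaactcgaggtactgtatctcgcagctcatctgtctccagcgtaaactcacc

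The libraries held 14160401 tags (the deposited unit of counting) at the least, in the high-volume 3 ng library, and 31524211 at the most, in the low-volume 30 ng library, summed over 1 transcript for each gene. The tissue label was checked against marker genes. Sensory neuron markers summed to 3126 to 3877 RPKM in the high-volume libraries and 3933 to 4557 RPKM in the low-volume libraries, and 8 of 8 had a mean of at least 1 RPKM. Glial markers summed to 864 to 936 RPKM in the high-volume libraries and 959 to 996 RPKM in the low-volume libraries. RPKM is the deposited number of tags scaled to the kilobases of exon and to the size of the library.

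Cacna1b, the N-type subunit, and Cacna1h, a T-type subunit, were the most abundant of the 10 genes. The 10 genes together summed to 6.94 ± 0.83 RPKM (SD, n = 6 libraries), of which Cacna1b and Cacna1h held 69.3% ± 9.2. The P/Q-, N- and R-type group made up 50.4% ± 5.4, the T-type group 39.0% ± 5.0 and the L-type group 10.6% ± 2.3 of the sum. In the high-volume 3 ng library the shares were 41.3% for the first and 48.7% for the T-type group, and this was the only library in which the T-type group was ahead.

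Cacna1b (chromosome 2, 24603894 to 24763129, minus strand) was at 1.758, 2.8 and 3.37 RPKM in the high-volume 3, 10 and 30 ng libraries, against 2.707, 3.016 and 2.86 RPKM in the low-volume libraries. It ranked first in all 6 libraries. The volumes overlapped, and the 3 ng library was the lowest of each volume. Its mean was 2.75 ± 0.54 RPKM (SD, n = 6), from 4139 tags over 47 exons and 9736 bases.

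Cacna1h (chromosome 17, 25374295 to 25433783, minus strand) was at 1.422, 2.037 and 2.896 RPKM in the high-volume 3, 10 and 30 ng libraries, against 1.574, 2.223 and 2.402 RPKM in the low-volume libraries. In both volumes the order followed the input, and the volumes overlapped. The mean was 2.09 ± 0.54 RPKM (SD, n = 6), from 2705 tags. Of its exonic bases 1.8% are shared with Tpsg1, whose tags cannot be told apart without strand.

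Cacna1b exceeded Cacna1h in 6 of 6 libraries, by 0.39 ± 0.20 on the log2(RPKM + 0.1) scale (SD, n = 6). The two-sided exact sign-flip p was 0.0312, the smallest that 6 libraries can give, and the adjusted p over the 9 neighbouring pairs in the order of levels was 0.141. With the last exon alone in place of the whole transcript the difference was -0.196, so the order of this pair turns with the part of the transcript that is counted.

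Cacna1g, the next T-type subunit (chromosome 11, minus strand), was at 1.533, 0.258 and 0.389 RPKM in the high-volume 3, 10 and 30 ng libraries, against 0.902, 0.234 and 0.207 RPKM in the low-volume libraries. Both 3 ng libraries stood above all others. The mean of 0.587 ± 0.53 RPKM (SD, n = 6) therefore rests on them, and over the 10 and 30 ng libraries it was 0.272 ± 0.081 RPKM (n = 4), which moved Cacna1g from rank 3 to rank 6. This restriction to 10 and 30 ng was chosen after the values were seen.

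Cacna1a, the P/Q-type subunit (chromosome 8, plus strand), varied less between libraries. It was at 0.603, 0.478 and 0.461 RPKM in the high-volume 3, 10 and 30 ng libraries, against 0.373, 0.473 and 0.427 RPKM in the low-volume libraries. The volumes overlapped, and the mean was 0.469 ± 0.076 RPKM (SD, n = 6). Of its exonic bases 2.89% are shared with Gm16183.

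Cacna1e, the R-type subunit (chromosome 1, minus strand), was at 0.142, 0.408 and 0.489 RPKM in the high-volume 3, 10 and 30 ng libraries, against 0.033, 0.342 and 0.311 RPKM in the low-volume libraries. Both 3 ng libraries stood below all others, with 28 tags in the high-volume and 7 tags in the low-volume library. The mean was 0.288 ± 0.17 RPKM (SD, n = 6) and 0.388 ± 0.079 RPKM over the 10 and 30 ng libraries (n = 4).

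Among the L-type subunits, Cacna1c (chromosome 6, minus strand), which carries the L-type current of heart and smooth muscle and of many neurons, was at 0.441, 0.209 and 0.393 RPKM in the high-volume 3, 10 and 30 ng libraries, against 0.708, 0.226 and 0.25 RPKM in the low-volume libraries. Like Cacna1g it was higher in both 3 ng libraries than in any other. Cacna1d (chromosome 14, minus strand), an L-type subunit that opens at less depolarised voltages, was at 0.164, 0.374 and 0.343 RPKM in the high-volume libraries in the same order of input, against 0.286, 0.373 and 0.316 RPKM in the low-volume libraries. Both 3 ng libraries were lower than the others for Cacna1d, 5.97% of whose exonic bases are shared with Chdh. Both genes were well below Cacna1b, with means of 0.371 ± 0.19 RPKM for Cacna1c and 0.309 ± 0.079 RPKM for Cacna1d (SD, n = 6).

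The other 3 genes were at the limit of detection. Cacna1s, the subunit of skeletal muscle, had 38 tags over all libraries, Cacna1f, the subunit of the retina, 23 tags, and Cacna1i, a T-type subunit best known from the thalamus, 23 tags. Cacna1s had 0, 1 and 14 tags in the high-volume 3, 10 and 30 ng libraries, against 0, 2 and 21 tags in the low-volume libraries. In the same order of input Cacna1f had 0, 5 and 14 tags in the high-volume and 0, 3 and 1 tags in the low-volume libraries, and Cacna1i had 0, 12 and 0 tags in the high-volume and 0, 4 and 7 tags in the low-volume libraries. The volumes overlapped for all 3 genes.

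All 3 of these genes were without tags in both 3 ng libraries. A count of 0 allows up to 3 tags, which at 3 ng is 0.031 RPKM in the high-volume library and 0.0284 RPKM in the low-volume library for Cacna1s. These limits lie below its level at 30 ng, 0.079 RPKM in high and 0.099 RPKM in low volume, and above its level at 10 ng, 0.006 RPKM in high and 0.011 RPKM in low volume. Markers of the tissues in which Cacna1s and Cacna1f are best known were also measured. Skeletal muscle markers summed to 46.4 to 51.1 RPKM in the high-volume libraries and 42.9 to 46.0 RPKM in the low-volume libraries, with 5 of 8 at 1 RPKM or more and Myod1 at 0.0848 RPKM. Of the photoreceptor markers, Crx was at 0.065 RPKM, Nrl at 0.0068 RPKM and Rcvrn at 0.0057 RPKM (means of 6 libraries). The part of these cells in the counts of Cacna1s and Cacna1f was not tested.

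**Figure D1:**
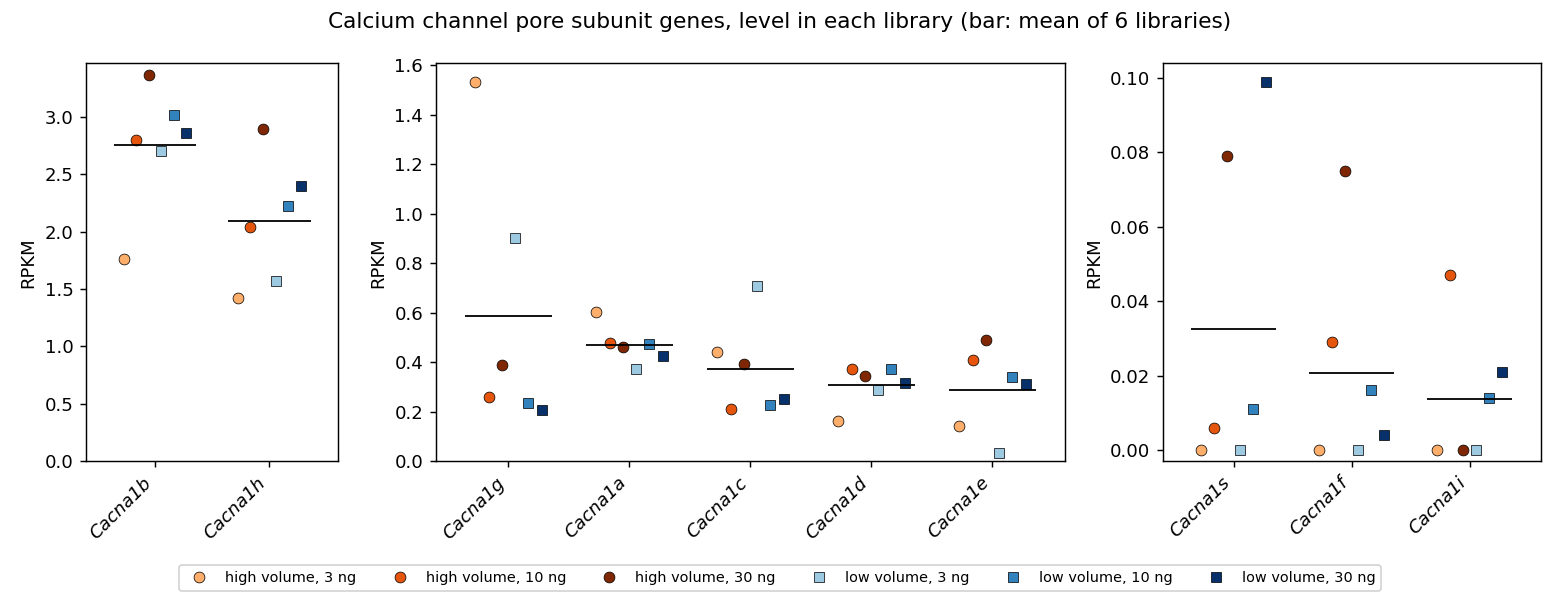
Deposited RPKM of the 10 pore subunit genes in each of the 6 libraries, with circles for high volume, squares for low volume, darker colour for more RNA input and a bar at the mean of 6 libraries. The panels have different scales, from Cacna1b and Cacna1h on the left to the genes under 0.1 RPKM on the right. In the left and middle panels the pale 3 ng points are highest for Cacna1g and Cacna1c and lowest for Cacna1b, Cacna1h, Cacna1d and Cacna1e.

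The order by mean was Cacna1b, Cacna1h, Cacna1g, Cacna1a, Cacna1c, Cacna1d, Cacna1e, Cacna1s, Cacna1f and Cacna1i. Of its 9 neighbouring pairs, 0 passed the adjusted threshold of 0.05 in the exact sign-flip test, whose smallest adjusted p was 0.141. With 6 libraries an adjusted p can pass only where at least 6 of the 9 pairs run one way in every library. In 2 pairs the first gene was higher in all 6 libraries, Cacna1b over Cacna1h and Cacna1e over Cacna1s. Cacna1e exceeded Cacna1s by 1.45 ± 0.68 on the log2(RPKM + 0.1) scale (exact sign-flip p = 0.0312, adjusted p = 0.141). Cacna1h exceeded Cacna1g by 1.94 ± 1.30 in 5 of 6 libraries (exact p = 0.0625), and the high-volume 3 ng library went the other way. Among the genes from Cacna1g to Cacna1e no neighbour was ahead in every library, so their order is not fixed by these data.

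The question put by the design was whether the reaction volume and the amount of RNA changed the measured levels. For the channels neither comparison gave a call. The 3 genes with few tags did not pass the filter on low counts, which left 7 of 10. By edgeR's quasi-likelihood test, 0 of the 7 differed between high and low volume, with 0 at an unadjusted p under 0.05 and a smallest adjusted p of 0.794. Over all genes 0.0062% were called, 1 of 16120, and 1076 had an unadjusted p under 0.05. DESeq2 called 179 of 16120, but its own filter on mean counts gave none of the 7 an adjusted p.

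The estimates differed in size from gene to gene and all had wide errors. The log2 difference, high minus low volume, was -0.01 ± 0.21 (SE) for Cacna1b and 0.15 ± 0.21 for Cacna1h, the genes with most tags. It was 0.89 ± 0.64 for Cacna1e, 0.86 ± 0.55 for Cacna1g and 0.41 ± 0.44 for Cacna1a. Single libraries moved these values, with Cacna1e at 0.37 without the low-volume 3 ng and 1.67 without the low-volume 10 ng library, Cacna1g at 0.40 without the high-volume 30 ng and 1.22 without the high-volume 10 ng library, and Cacna1a at 0.20 without the low-volume 3 ng and 0.51 without the high-volume 30 ng library. For Cacna1c it was 0.12 ± 0.61 and for Cacna1d -0.05 ± 0.53, so that a 2-fold difference in either direction was within about 2 standard errors for both. The median over the 7 genes was 0.15, against 0.02 over all genes tested. The interaction of volume and input was called for 0 of 16120 genes (1347 at an unadjusted p under 0.05) and for none of the 7, with a smallest adjusted p of 0.597 among them.

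With rising input the levels of the 7 genes went different ways. Per doubling of the RNA input the edgeR log2 change was 0.70 ± 0.28 (SE) for Cacna1e, 0.25 ± 0.08 for Cacna1h, 0.18 ± 0.21 for Cacna1d and 0.15 ± 0.08 for Cacna1b. It was -0.62 ± 0.19 for Cacna1g, -0.25 ± 0.21 for Cacna1c and -0.03 ± 0.16 for Cacna1a. Unadjusted edgeR p-values were 0.0108 for Cacna1g, 0.0143 for Cacna1h and 0.0374 for Cacna1e, and the smallest adjusted p was 0.625, so 0 of 7 were called. Over all genes 0.0% were called, 0 of 16120, with 1252 at an unadjusted p under 0.05 (7.77%) and 36 called by DESeq2, which called none of the 7 (smallest adjusted p 0.158). The slope of Cacna1g rests on the 3 ng libraries, since it was 0.15 over the 10 and 30 ng libraries alone, and that of Cacna1e was 0.05 there. The slope of Cacna1h was 0.21 over the 10 and 30 ng libraries, near its value over all libraries.

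**Figure D2:**
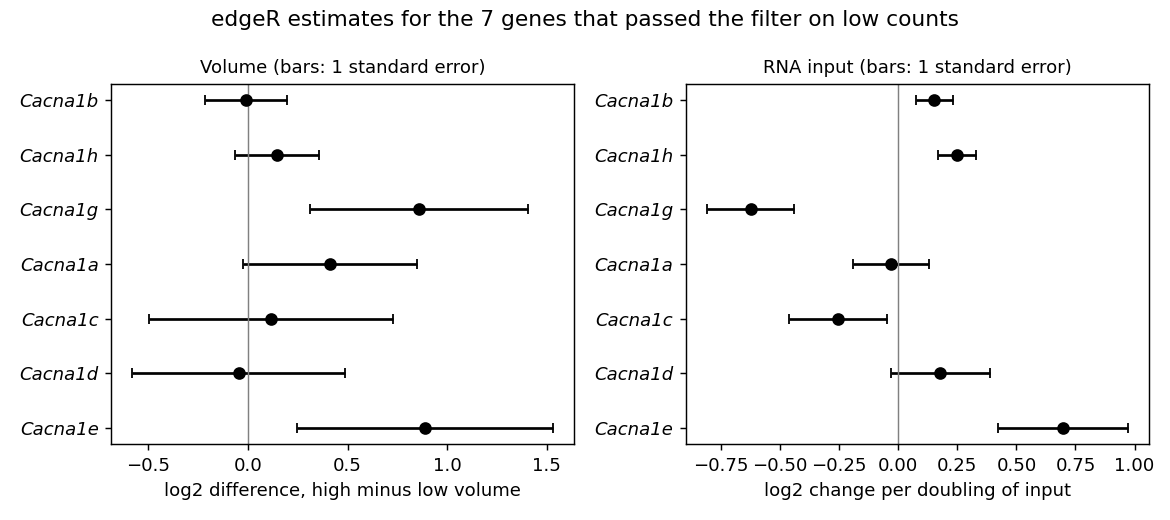
edgeR log2 difference between the volumes (left, high minus low) and log2 change per doubling of RNA input (right) for the 7 pore subunit genes that passed the filter on low counts, with bars of 1 standard error. On the left every estimate lies within 2 standard errors of 0, and on the right Cacna1g at -0.62 and Cacna1e at 0.70 lie farthest from 0 on opposite sides.

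Tags were unevenly spread along these long transcripts. In Cacna1b the last exon, of 3207 bases and 32.9% of the transcript's length, held 69.3% of all tags. Its share was 73.6%, 62.7% and 61.2% in the high-volume 3, 10 and 30 ng libraries, against 83.4%, 73.6% and 70.3% in the low-volume libraries, with exact binomial 95% intervals of 58.0% to 64.3% for the high-volume and 67.2% to 73.2% for the low-volume 30 ng library. At each input the share was higher in the low-volume library. Tags carry no molecular identifiers, so such intervals cover counting error only.

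Cacna1h had 76.0% of its tags in a last exon that makes up 22.5% of the length, with 56.4% to 83.8% in single libraries. Its share at each input was likewise higher in the low-volume library, with 56.4%, 73.4% and 72.1% in the high-volume 3, 10 and 30 ng libraries and 78.1%, 83.8% and 80.1% in the low-volume libraries. These were the only 2 of the 7 genes with 100 tags or more in which this held at every input. Cacna1a was the other way at 3 ng, with 55.4% in high and 40.0% in low volume, and at 10 ng, with 49.0% in high and 40.4% in low volume. In the other 5 genes the last exon held 40.4% (Cacna1a) to 52.7% (Cacna1e) of all tags. For Cacna1e that is close to the 50.5% of the length that this exon of 6417 bases takes up. Over 402 other genes with at least 30 exons, transcripts of 6000 to 13000 bases and at least 100 tags, the median share of the last exon was 35.0% to 42.7% in single libraries, for a median of 20.4% of the length. Among the 382 of them with tags in every library, the share was higher in low volume at every input in 17.5%.

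Each transcript was split at the middle of its exonic length into a 5′ and a 3′ part, with each exon assigned whole by its midpoint. For Cacna1e the 3′ part was the last exon alone, so its ratio restates the share of that exon. The density of tags in the 5′ part was below that in the 3′ part in all 6 libraries for Cacna1b, Cacna1h and Cacna1g. The ratio of 5′ to 3′ density was 0.0767 to 0.265 for Cacna1b, 0.0575 to 0.324 for Cacna1h and 0.0039 to 0.122 for Cacna1g. Cacna1a and Cacna1d were below 1 in 5 of 6 libraries, Cacna1c in 4 and Cacna1e in 3. Among the 402 other genes, 62.4% were below 1 in all 6 libraries, and the median of the genes' median ratios was 0.365. Between the volumes the mean log2 ratio was -1.99 ± 0.11 in high and -2.94 ± 0.67 in low volume for Cacna1b (SD, n = 3 each), and -2.57 ± 0.82 and -3.86 ± 0.25 for Cacna1h. The volumes did not overlap for these 2 of the 7 genes, against 12.4% of the 402 other genes (50, of which 40 were higher in high volume as here). The exact permutation p was 0.1 for each, the smallest that 3 against 3 can give, and the test did not match libraries by input.

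The level of a gene thus depends on the exons counted. By the median RPKM over its coding exons Cacna1b was at 1.07, Cacna1h at 0.426, Cacna1a at 0.197 and Cacna1e at 0.184 RPKM. Cacna1c was at 0.0902, Cacna1d at 0.03 and Cacna1g at 0.0215 RPKM by this measure. Each of these genes was below its value for the whole transcript. By the last exon alone Cacna1h was at 6.96 and Cacna1b at 5.87 RPKM. Cacna1b and Cacna1h held the first 2 ranks by either measure.

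The 3 ng libraries reached few of the exons before the last. Over the 7 genes with 299 such exons, 49 held a tag in the high-volume 3 ng library, against 49 in the low-volume 3 ng library. At 10 ng it was 183 in high and 178 in low volume, and at 30 ng 207 in high and 197 in low volume. The exons that were reached at 3 ng held more tags each, with 7.02 in high and 5.75 in low volume, than at 30 ng, with 4.25 in high and 3.33 in low volume. Over the 402 other genes the median share of such exons with a tag was 34.6% and 36.4% in the high- and low-volume 3 ng libraries and 89.7% to 93.3% in the other libraries.

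Single genes show this pattern plainly. In the high-volume 3 ng library Cacna1b had tags in 13 of 46 exons before the last, in runs such as exons 20 to 23 and 29 to 31, while the low-volume 30 ng library reached all 46. The low-volume 3 ng library reached 9 of them, with 12 and 13 tags in exons 19 and 20. Cacna1e had 28 of 28 tags in its last exon in the high-volume 3 ng library. Cacna1g, with its high 3 ng levels, had 142 tags in 15 exons, all from exon 15 onward, in the high-volume 3 ng library and 48 tags in 4 exons in the low-volume 3 ng library, of which exons 36 and 37 held 17 and 16. In Cacna1d the low-volume 3 ng library had 40 of 42 tags before the last exon, with 7, 10 and 9 in exons 12, 13 and 14.

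**Figure D3:**
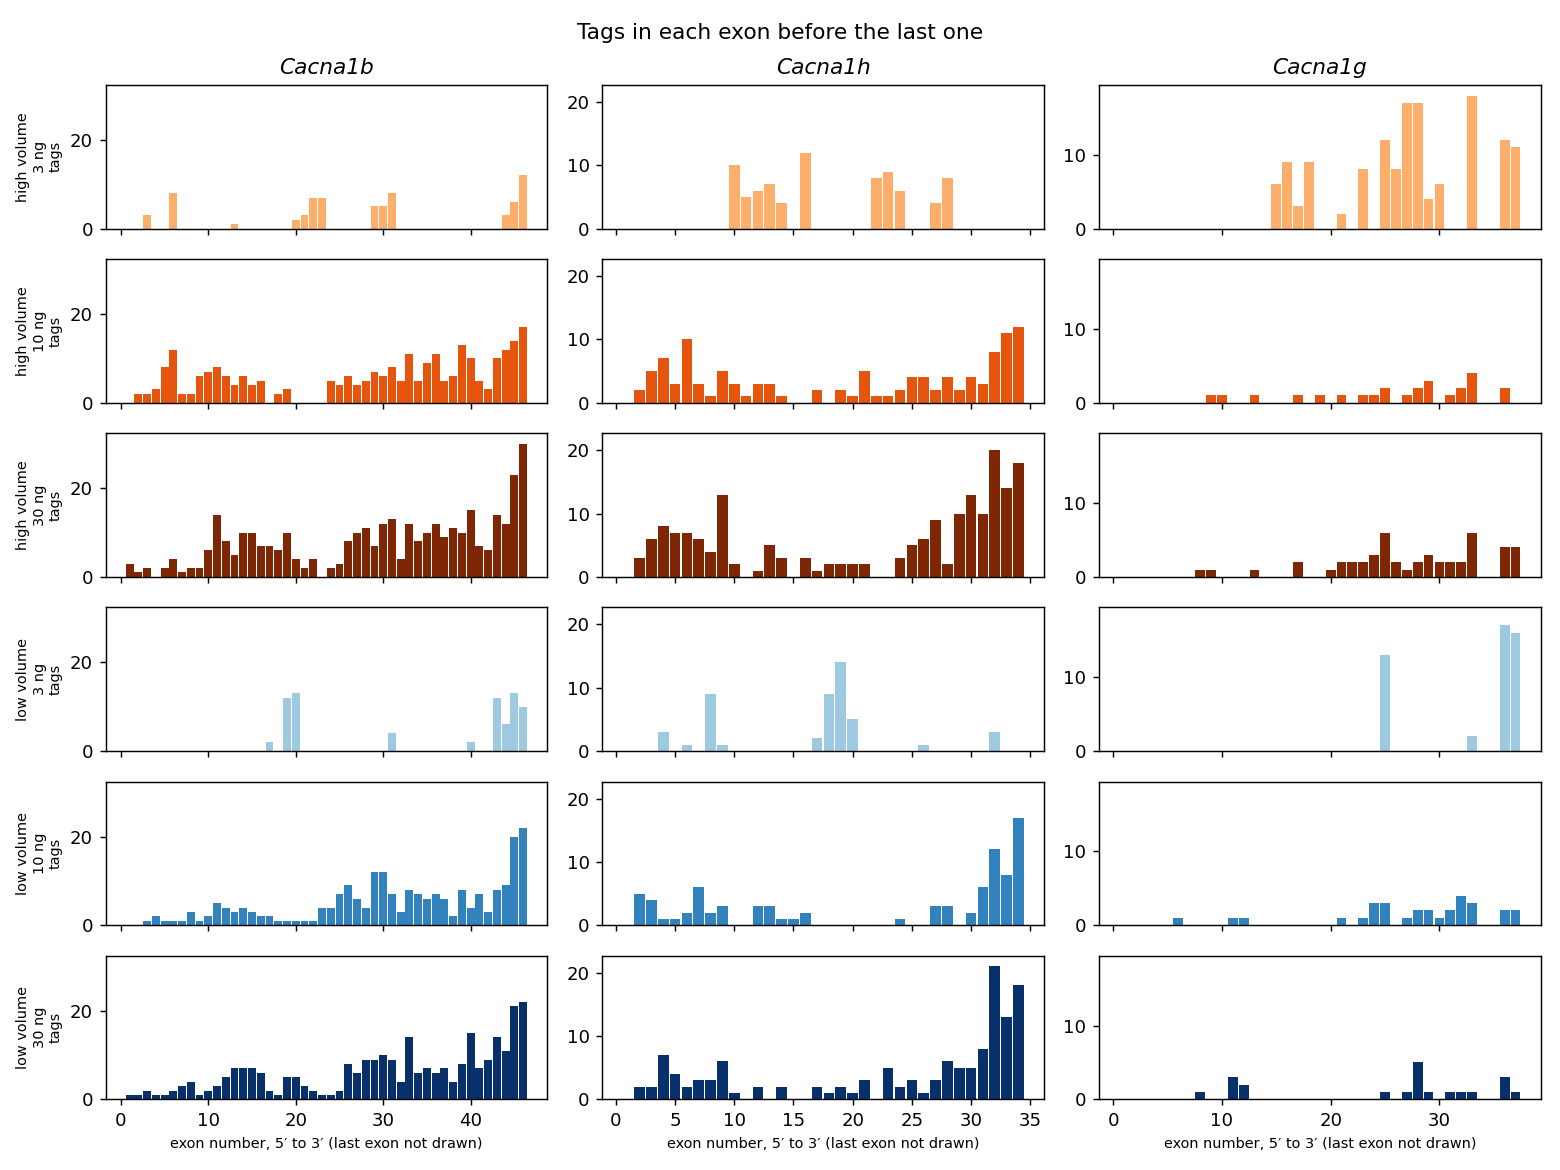
Tags in each exon before the last one of Cacna1b, Cacna1h and Cacna1g (columns), by exon number from 5′ to 3′, in each library (rows, high volume above low volume). The 10 and 30 ng libraries spread over most exons of Cacna1b and Cacna1h, whereas the 3 ng libraries show a few runs of exons, among them the tall bars of Cacna1g.

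**Figure D4:**
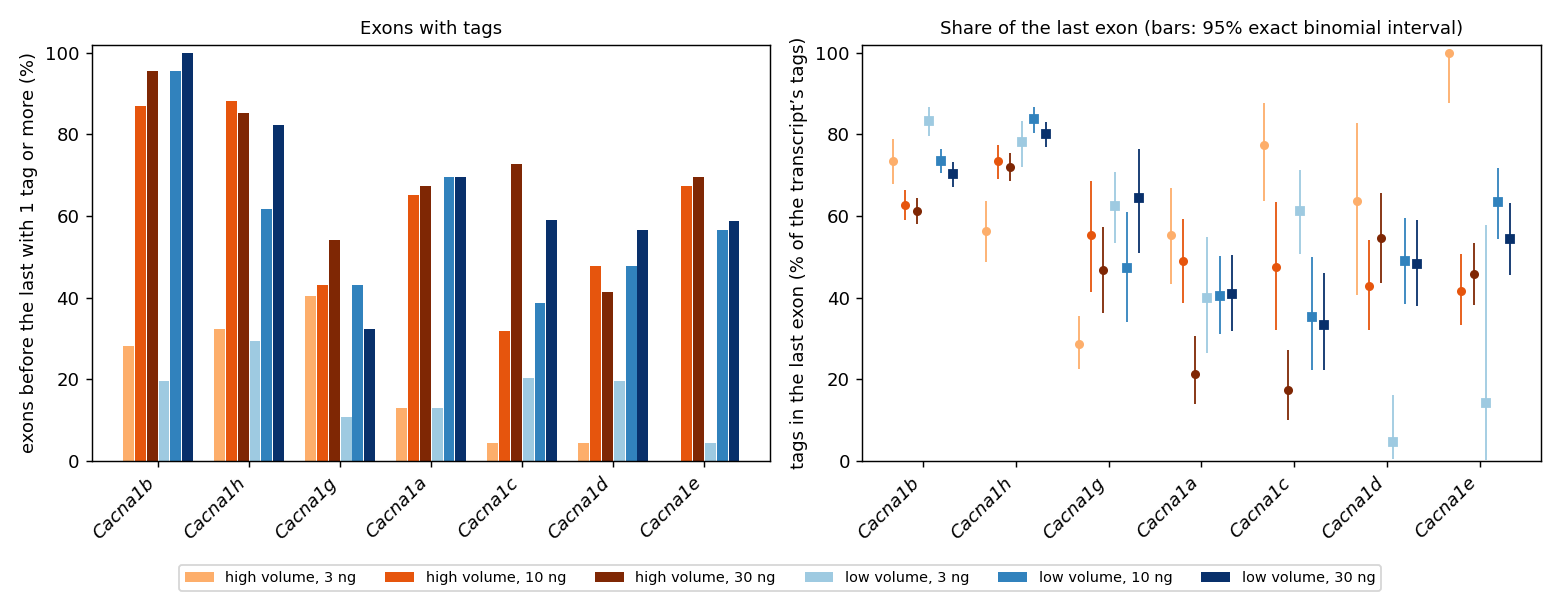
Left, the share of exons before the last with at least 1 tag, for the 7 genes with 100 tags or more. Right, the share of the transcript's tags in its last exon with exact binomial 95% intervals. Orange shades are high volume, blue shades low volume and darker shades more input, and on the left both 3 ng bars are the lowest of each gene except Cacna1g in high volume, at 15 of 37 exons.

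Tags within introns differed among the genes. Cacna1c had 1664 tags in the introns of its transcript against 391 in its exons, Cacna1a 1750 against 549, Cacna1e 1589 against 604 and Cacna1d 1246 against 419. Per kilobase, exons were denser than introns in all of them, 5.45-fold in Cacna1c, 8.59-fold in Cacna1a, 9.60-fold in Cacna1e and 17.1-fold in Cacna1d. The 2 leading genes had 27.7-fold (Cacna1b) and 104-fold (Cacna1h) denser exons. The origin of the intron tags was not tested.

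The 3′ end of Cacna1b was annotated with shorter and longer forms of the last exon. The shorter form ends at position 24606375 and the longer at 24603894, and their common part covers 726 bases. The 2481 bases found in the long form alone held 172, 389 and 477 tags in the high-volume 3, 10 and 30 ng libraries, against 346, 569 and 582 tags in the low-volume libraries. The common part held 23, 53 and 89 tags in the high-volume libraries, against 26, 59 and 82 tags in the low-volume libraries. Per base the long-only part was denser in 6 of 6 libraries, by 1.56-fold to 3.83-fold. Most tags of the last exon lay in the long-only part, which also makes up most of the exon's length.

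For the e37 pair printed above, e37b had 0, 6 and 11 tags in the high-volume 3, 10 and 30 ng libraries, against 0, 2 and 4 tags in the low-volume libraries. Exon e37a had 0, 1 and 1 tags in the high-volume libraries and 0 in each of the low-volume libraries. Every library with a tag in the pair held more of e37b. Together e37b took 23 of 25 tags, 92.0% with an exact binomial 95% interval of 74.0% to 99.0%. The log2 ratio, with 0.5 tags added to each count, was 1.76 ± 1.42 (SD, n = 6), with a two-sided exact sign-flip p of 0.125, since both 3 ng libraries held 0 tags of either exon.

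Read against the constitutive exons on either side, which had 27 and 39 tags over 128 and 109 bases, e37b was at 0.834 and e37a at 0.0725 of their mean density. The density of e37a was 0.0206 tags per base, with an exact Poisson 95% interval of 0.0025 to 0.0745 for its 2 tags, against 0.0175 in the intron before it, 0.0074 in the intron between e37a and e37b and 0.0273 in the intron after e37b. All 3 intron densities lie within the interval of e37a, so a difference from the introns was not detectable at this depth.

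The 6-base exon had 0, 5 and 4 tags in the high-volume 3, 10 and 30 ng libraries, against 0, 3 and 4 tags in the low-volume libraries. The exon before it had 49 tags over the 6 libraries and the exon after it 45. How a tag longer than the exon is assigned to it is not given in the sources used here, so its tags per base (5.51 times the mean of its neighbours) are not comparable with theirs. It held 16 tags in all. The intron upstream of this exon was the densest around any of the exons shown, with 550 tags at 0.0979 per base, of which 138 were in the high-volume 3 ng library. Of these 550 tags, 87 were in the high-volume and 128 in the low-volume 30 ng library, and whether tags of the intron reach into the exon was not tested.

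The 12-base exon had 1 tag, in the high-volume 10 ng library, beside neighbours with 12 and 16 tags. The 63-base exon had 0, 0 and 1 tags in the high-volume 3, 10 and 30 ng libraries and 0, 1 and 1 tags in the low-volume libraries, beside neighbours with 10 tags over 107 bases and 31 tags over 768 bases. A further annotated alternative exon, of 108 bases in the C-terminal part, had 46 tags over all libraries and 1.45 times the density of its neighbours. These counts are too few to compare the volumes or the inputs.

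**Figure D5:**
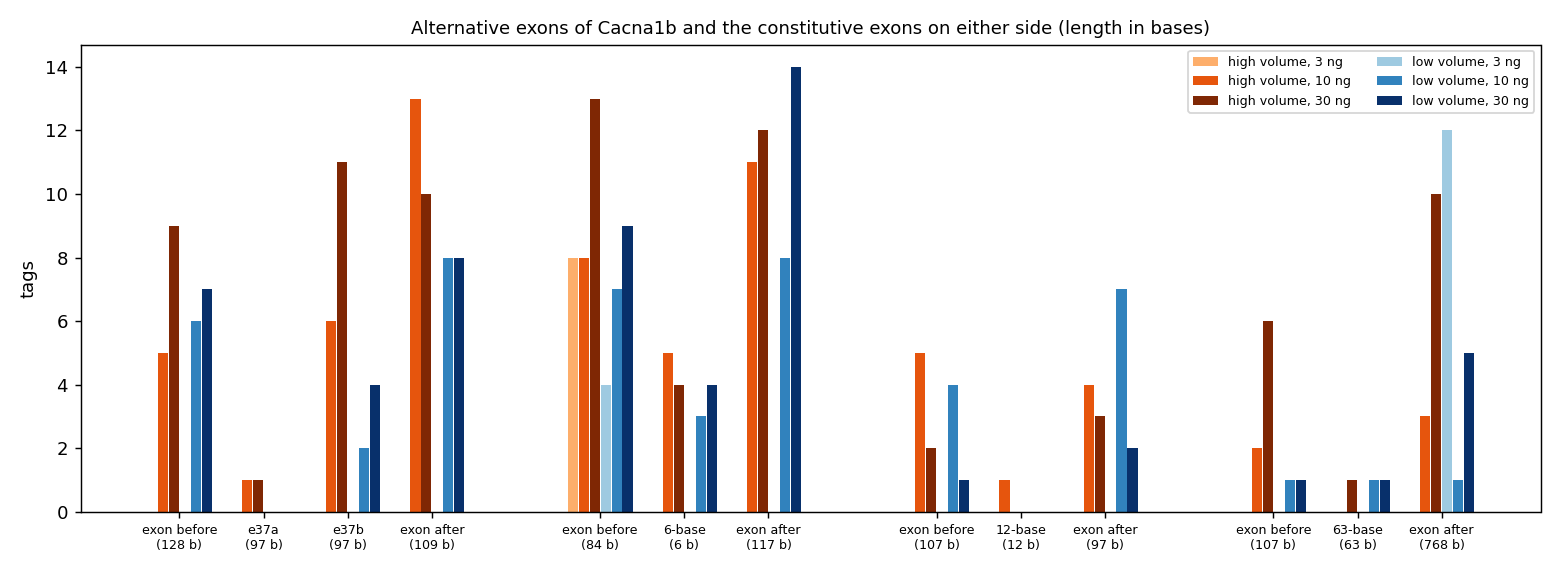
Tags in alternative exons of Cacna1b (e37a, e37b and the exons of 6, 12 and 63 bases) and in the exons on either side, in each library, with orange shades for high volume and blue for low volume. The exons on either side are constitutive, except the 768-base exon after the 63-base exon. Exon e37b reaches 11 tags and e37a 1 tag, and the 3 ng libraries hold tags in 2 of the exons drawn.

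Across all 10 genes, 20 internal coding exons met the definition of an alternative exon, and 10 had at least 20 tags together with their neighbours. Of these 6 were in Cacna1b, 3 in Cacna1g and 1 in Cacna1c. In Cacna1g the exons of 135 and 144 bases in the 3′ part had 0 tags, while the constitutive exons on either side had 74. Most of these 74 were in the 3 ng libraries. Exons 33 and 36, the neighbours, had 18 and 12 tags in the high-volume and 2 and 17 in the low-volume 3 ng library. The Cacna1g exon of 54 bases had 10 tags, 8 of them in the high-volume 3 ng library. In Cacna1c an exon of 104 bases had 11 tags, again with 8 in the high-volume 3 ng library.

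Partners of the pore subunits were measured as a list of 56 genes. By edgeR 0 of the 46 that passed the filter were called between the volumes and 0 with input. Over all genes 1 of 16120 (0.0062%) was called between the volumes and 0 of 16120 with input, so these counts do not set the partners apart. The partners' medians on the log2 scale were 0.13 (high minus low volume) and 0.08 (per doubling of input), against 0.02 and 0.02 over all genes tested. All 16 auxiliary subunit genes were in the files, 8 of them with a mean of 1 RPKM or more. The highest were Cacnb3, a cytoplasmic beta subunit that brings the pore to the membrane, at 39.2 ± 9.3 RPKM, Cacng4, of a gamma family also known for subunits of AMPA receptors, at 7.13 ± 0.97 RPKM, and Cacna2d1, the alpha2delta subunit bound by gabapentin, at 6.00 ± 0.98 RPKM (SD, n = 6). Cacna2d4, Cacng6, Cacng7 and Cacng8 were listed at 0 in all libraries.

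Among channel regulators and binders of the active zone, Calm2, which codes for calmodulin, was at 2236 ± 220 RPKM, and Dpysl2, whose product CRMP2 binds the N-type channel, was at 561 ± 142 RPKM (SD, n = 6). Among regulators known to act on Cacna1b exons, Rbfox1 was at 12.6 ± 2.1, Rbfox2 at 11.01 ± 2.0 and Ctcf at 6.43 ± 1.27 RPKM. Among genes of calcium release and clearance, the plasma membrane pump gene Atp2b1 was at 13.9 ± 2.0, the reticulum pump gene Atp2a2 at 9.50 ± 2.30 and the pump gene Atp2b2 at 3.91 ± 0.63 RPKM. By the RPKM of the whole transcript, the leading auxiliary subunits were higher than any pore subunit. By its last exon alone Cacna1h was at 6.96 RPKM, above the whole-transcript 6.00 RPKM of Cacna2d1. The ranking thus depends on the exons counted, and the last exons of the auxiliary subunit genes were not compared.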

How the data were processed

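Total RNA of 1 pool was made into 6 libraries, 3 per volume. The submitters' processing notes name Bowtie2 2.1.0, TopHat2 2.0.8, CASAVA 1.8 and the build GRCm38.p1. How tags were counted (program, strand, multiple matches, annotation) is not given in the sources used. Files as deposited hold a whole-number tag count and the authors' RPKM for each transcript, exon and intron, per the file headers. The count of a transcript equals the sum of its exons, and that of an intron spanning an exon equalled the sum of its parts in 126 of 126 values. Whether a read across a junction gives 1 tag in each exon is not given, so transcript counts, exon shares and runs of exons may hold a read more than once, and intervals are then too narrow.

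From these, transcripts were matched to genes with GENCODE M21 (3951 of 93615 unmatched and left out). The transcript with the most tags stood for each gene. For Cacna1f it is annotated as a retained intron, and for the other members as protein-coding. The mean of Cacna1f was 0.0207 RPKM by this transcript and 0.0227 RPKM by its protein-coding transcript with the highest mean RPKM. Of the 10 representative transcripts, 8 had the coordinates of M21 and Cacna1c and Cacna1d did not. Counts were tested with edgeR 4.0.16 (quasi-likelihood, TMM, filterByExpr, volume and centred log2 input, Benjamini-Hochberg over 16120 genes, threshold 0.05), and DESeq2 1.42.0 was an alternative. The edgeR step was tested on simulated data. Ratios of 5′ to 3′ density had 0.5 tags added. All members, the partners with the 3 highest mean RPKM per subgroup, and any partner past the threshold are named, apart from items that are not reported here. The members and lists were chosen with earlier results of these data known.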

Additional observations from a re-analysis of the deposited data

How the results depend on the processing

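The number of genes called between high and low volume was 1 in the reported fit. It was 179 with DESeq2, 11 without the filter on low counts, 274 in the 10 and 30 ng libraries alone, and 0 with a GC correction, with the input as a replicate block, and with that block and the GC correction together. Leaving out 1 library gave 0 (low-volume 3 ng left out) to 2 (high-volume 30 ng left out). For input, 0 genes were called, against 36 with DESeq2, 2 without the filter and 1 in the 10 and 30 ng libraries alone. None of the 7 tested channel genes passed the adjusted threshold under any of these settings that gave them an adjusted p. The replicate numbers mark the input. Deviations of same-input libraries from their group means correlated with r of 0.088, 0.057 and 0.041 (10, 3 and 30 ng, 14399 genes), and 5 of 6 libraries correlated best with the one of the same input, a hint from the data and no pairing by design.

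Several uncalled estimates changed sign, and the cause was not tested. For the volume difference, Cacna1b was 0.0316 without the input term and 0.194 at 10 and 30 ng, Cacna1d 0.0009 and 0.19 under the same settings, Cacna1c -0.0054 without TMM and -0.0218 without the input term, and Cacna1h -0.101 with block and GC correction and -0.109 with the GC correction. Without 1 library it ranged from -0.207 to 0.189 for Cacna1b, from -0.463 to 0.623 for Cacna1c and from -0.299 to 0.254 for Cacna1d. The input slope was 0.0011 for Cacna1a with the GC correction (-0.122 to 0.0531 without 1 library), and at 10 and 30 ng 0.344 for Cacna1c, -0.104 for Cacna1d and 0.147 for Cacna1g.

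On the log2 scale of levels, Cacna1b minus Cacna1h was -0.196 by the last exon. Cacna1g minus Cacna1a was 0.032 by the coding transcript with the highest RPKM, 0.055 with a pseudocount of 1, and -0.273 to 0.126 without 1 library. Cacna1c minus Cacna1d was -0.312 at 10 and 30 ng and -0.043 to 0.294 without 1 library. Cacna1d minus Cacna1e was -1.01 by the median coding exon, -0.099 at 10 and 30 ng and -0.054 to 0.336 without 1 library. Cacna1s minus Cacna1f ranged from -0.063 to 0.181, and Cacna1f minus Cacna1i from -0.076 to 0.129, without 1 library, and the last exon gave -0.123 for Cacna1f minus Cacna1i. No setting took a neighbouring pair past the threshold, which 5 libraries or fewer cannot reach.

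The number of genes with lower 5′ than 3′ density in every library was 3. It was 5 in the 10 and 30 ng libraries alone and 3 to 5 without 1 library, with 5 when the low-volume 3 ng library was left out, where Cacna1a and Cacna1d joined. The share of e37b was 90.5% to 94.4% without 1 library. With at least 50 tags required, 6 alternative exons were measurable in place of 10. The settings with the 10 and 30 ng libraries alone were chosen after seeing the data, except for the volume comparison. Depth limits the genes under 0.1 RPKM and the exons with fewer than 20 tags.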
